A study of Mus musculus with 2 samples.

Results

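The miR-17 to miR-92 and miR-106b to miR-25 clusters are 2 related groups of microRNA genes that were measured here in mouse calf muscle. Their members are the 9 genes, of 2202 microRNA genes counted, whose identifiers carry the names Mir17, Mir18, Mir19a, Mir20a, Mir19b-1, Mir92-1, Mir106b, Mir93 or Mir25 in GENCODE mouse release M21. The first 6 form the miR-17 to miR-92 cluster of chromosome 14 and the last 3 the miR-106b to miR-25 cluster of chromosome 5, inside the gene Mcm7. All 9 names were found in both libraries' counts. The series holds 1 group, the gastrocnemius (the large muscle of the calf) of female B6CASTF1/J mice aged 2 months, and this strain is the F1 hybrid between C57BL/6J and CAST/EiJ. Small RNA of under 30 nt was sequenced in 2 libraries, labelled biological replicates 1 and 2. No treatment, genotype or age is set against another, so the values describe this muscle, how the clusters compare within a library, and how far the libraries differ. Per the labels the libraries come from differently numbered females, yet both carry the same donor code.

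A cluster of this kind is transcribed as 1 long primary RNA, from which Drosha and Dicer cut the hairpins and then the mature strands that guide Argonaute to target messengers. The choice of targets rests mostly on the seed, bases 2 to 8 of the mature strand. The miR-17 to miR-92 cluster, also known as oncomiR-1, is switched on by MYC and E2F factors, and its microRNAs lower the pro-apoptotic protein Bim. Mice that lack it die at birth with defects of the lung, heart and B cells, whereas mice that lack miR-106b to miR-25 alone are viable. Mcm7, the host of the second cluster, encodes a subunit of the helicase that unwinds DNA at replication, and miR-106b and its relatives lower the cell cycle inhibitor Cdkn1a (p21). A related cluster on the X chromosome (Mir106a, Mir18b, Mir20b, Mir19b-2, Mir92-2 and Mir363) has the same ancestor.

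The mature microRNA for which each member is named is printed because its seed sorts the 9 genes into 4 families across both clusters. The sequences are from RefSeq (GRCm38.p6), which held all 9, and capitals mark the seed. The first 4 carry the miR-17 seed, and they are followed by the miR-18, miR-19 and miR-92 seeds.
miR-17-5p (Mir17): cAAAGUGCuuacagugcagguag
miR-20a-5p (Mir20a): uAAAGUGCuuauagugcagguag
miR-106b-5p (Mir106b): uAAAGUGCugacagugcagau
miR-93-5p (Mir93): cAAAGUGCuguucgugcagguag
miR-18a-5p (Mir18): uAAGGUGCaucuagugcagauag
miR-19a-3p (Mir19a): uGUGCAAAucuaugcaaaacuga
miR-19b-3p (Mir19b-1): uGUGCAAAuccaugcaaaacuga
miR-92a-3p (Mir92-1): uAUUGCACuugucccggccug
miR-25-3p (Mir25): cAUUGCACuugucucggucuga

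Outside the seed the family members are also close. Counting positions from 1 at the 5′ end, miR-17-5p and miR-20a-5p differ at 2 of 23 positions (C1U and C12U). Between miR-17-5p and miR-106b-5p there are 3 differences over the 21 positions of the shorter one (C1U, U10G and G20A), and between miR-17-5p and miR-93-5p there are 4 of 23 (U10G, A11U, C12U and A13C). A single change, U11C, separates miR-19a-3p from miR-19b-3p. For miR-92a-3p and miR-25-3p, which lie in different clusters, 3 of 21 positions differ (U1C, C14U and C18U).

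The files count reads per gene, so the 2 arms of a hairpin are pooled and a value belongs to the gene rather than to 1 mature strand. Reads with more than 1 alignment were assigned to none of the genes, and they made up 70.1% of the reads listed for replicate 1 and 72.3% of those for replicate 2. This bears on 2 members whose mature sequence is encoded a second time on the X chromosome. The hairpins of both pairs are given because the whole mature strand lies inside the stretch that the copies share, which is in capitals. They are from GRCm38.p6, Mir19b-1 at chr14:115044305-115044391 and Mir92-1 at chr14:115044427-115044506 on the plus strand, and Mir19b-2 at chrX:52741983-52742066 and Mir92-2 at chrX:52741838-52741928 on the minus strand.
Mir19b-1: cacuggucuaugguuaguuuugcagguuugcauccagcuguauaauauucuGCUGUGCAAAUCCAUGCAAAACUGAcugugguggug
Mir19b-2: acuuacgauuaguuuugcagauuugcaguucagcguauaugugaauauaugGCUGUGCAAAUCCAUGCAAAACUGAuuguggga
Mir92-1: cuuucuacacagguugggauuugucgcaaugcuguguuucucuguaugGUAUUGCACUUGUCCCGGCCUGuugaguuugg
Mir92-2: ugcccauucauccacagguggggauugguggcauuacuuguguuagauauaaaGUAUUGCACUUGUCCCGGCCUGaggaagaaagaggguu

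The shared stretch is 25 nt in the Mir19b pair and 22 nt in the Mir92 pair. In the other 7 members, the longest stretch shared with any other microRNA gene was 13 nt for Mir17, Mir19a and Mir93, 14 nt for Mir106b and Mir25, and 17 nt for Mir18 and Mir20a. Each of these is shorter than the mature strands, which are 21 to 23 nt long. Such a stretch ends at the first difference, so mature strands can be closer than it shows. For example, miR-19a-3p and miR-19b-3p differ at 1 of 23 positions. How reads with a mismatch were treated is not stated in the sources. In the Mir19b and Mir92 pairs, a read that covers only shared sequence matches both copies equally well. If it was treated as a read with several alignments, which the sources do not state, it is in neither count, so the values of Mir19b-1 and Mir92-1 may be too low.

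Reads counted on a microRNA gene in its own orientation numbered 1950204 in replicate 1, of 9410562 reads listed (20.7%), and 2291821 in replicate 2, of 14377558 (15.9%). Levels are given in CPM, the usual scaling of counts to the library total, so that 1 count was worth 0.513 CPM in replicate 1 and 0.436 CPM in replicate 2. Of all genes, 278 reached 10 counts in each library and are called detected. Counts were not divided by the length of the hairpin, because the reads come from mature strands of nearly equal length. Of the microRNAs named for striated muscle, 9 of 10 were detected, with a summed level of 27946 CPM in replicate 1 and 46569 CPM in replicate 2. Some of them are gene copies, and reads with more than 1 alignment are not in this sum, which may be too low.

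Of the 9 members, 7 were detected, and their sum was 9767 counts, or 0.501% of the library, in replicate 1 and 10198 counts, or 0.445%, in replicate 2, which averages 0.473% ± 0.0395 (SD, n = 2). No read of any member lay on the opposite strand in either library. The 4 highest members were the 4 with the miR-17 seed, and the miR-19 genes were at or near 0. The order of the 9 members by level was the same in both libraries, though any reads missing from Mir19b-1 or Mir92-1 could change it. In bulk tissue, fewer cells of a type and less RNA per cell cannot be told apart.

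Mir17 (ENSMUSG00000065508.1), the first gene of its cluster, is on chromosome 14 of mm10 (plus strand), spanning 115043671 to 115043754. It had 2404 counts in replicate 1 and 2571 in replicate 2, which is 1233 CPM (95% exact interval 1184 to 1283) and 1122 CPM (1079 to 1166). Its mean of 1177 ± 78.4 CPM (SD, n = 2) was the highest of its cluster and ranked 54 among all 2202 genes. Intervals here and below are exact 95% intervals and cover counting error only.

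Mir20a (ENSMUSG00000065442.1, 115044157 to 115044263) had 1670 counts in replicate 1 and 1889 in replicate 2, or 856 and 824 CPM. Its mean of 840 ± 22.7 CPM (SD, n = 2) had the smallest spread, relative to its size, of the 7 detected members. Mir92-1 (ENSMUSG00000076062.1, 115044427 to 115044506), the source of miR-92a, which restrains vessel growth in endothelium, had 791 and 803 counts, or 406 CPM in replicate 1 and 350 CPM in replicate 2. Its mean was 378 ± 39.0 CPM (SD, n = 2), which may leave out reads shared with Mir92-2.

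Mir18 (ENSMUSG00000065403.1, 115043851 to 115043946) was the lowest of the detected members, with 148 counts in replicate 1 and 206 in replicate 2. These are 75.9 CPM and 89.9 CPM, a mean of 82.9 ± 9.90 CPM (SD, n = 2). It was the only detected member that was lower in replicate 1 by CPM. Mir19a (ENSMUSG00000065416.1, 115044000 to 115044081) had 2 counts in replicate 1 and 5 in replicate 2, or 1.03 CPM (0.124 to 3.70) and 2.18 CPM (0.708 to 5.09). Mir19b-1 (ENSMUSG00000076256.1, 115044305 to 115044391) had 0 counts in replicate 1 and 3 counts, or 1.31 CPM, in replicate 2. The exact interval of its 0 counts reaches up to 1.89 CPM, and the floor of 3 counts used here is 1.54 CPM in replicate 1. Mir19a and Mir19b-1 were thus not detected, although Mir18 and Mir20a, the genes on either side of Mir19a, were. Mir18 had 74.0 times the counts of Mir19a in replicate 1 (20.1 to 617) and 41.2 times in replicate 2 (17.4 to 128), and the nearest neighbours lie 53 and 75 nt from Mir19a. Of the pair, Mir19b-1 shares its whole mature sequence with another gene, whereas the longest unbroken stretch that Mir19a shares is 13 nt. Its mature strand still differs from miR-19b-3p at a single position (U11C). The part of reads with several alignments in these low counts was not tested.

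The 6 genes lie within 836 nt, and all 6 fall in an exon of the 1 annotated transcript of the long noncoding gene Mir17hg (115042879 to 115046727).

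**Figure D1:**
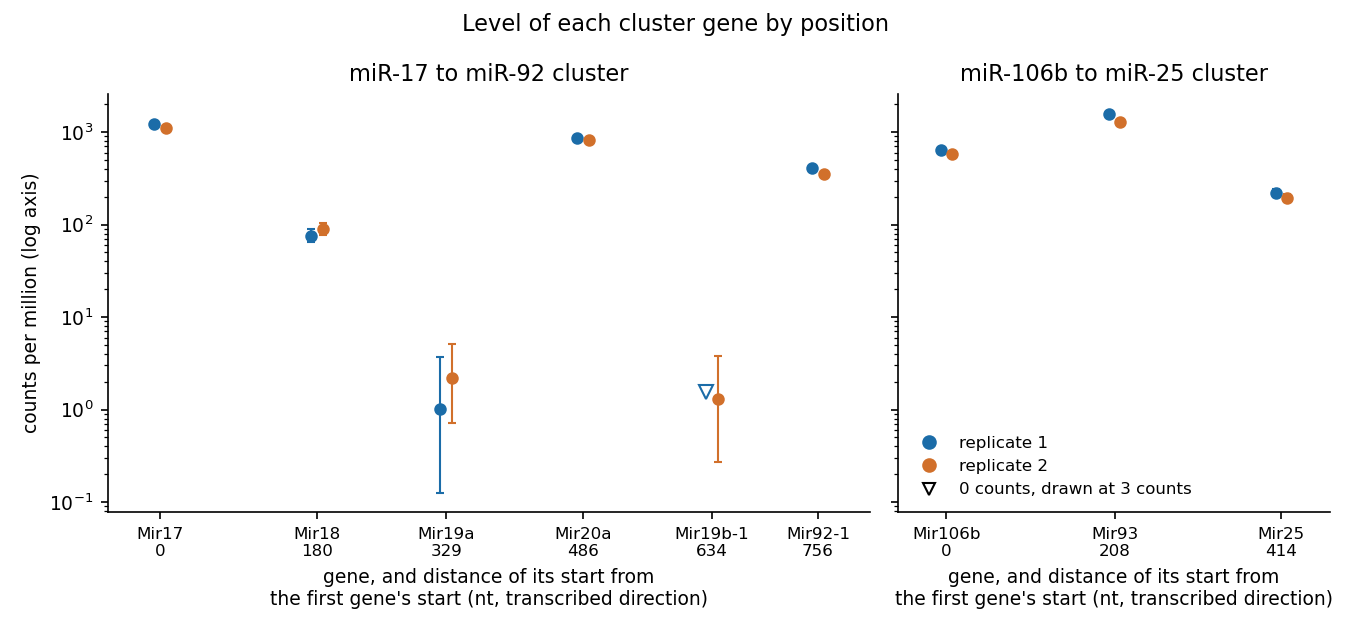
Level of each member (CPM, log axis) in replicate 1 and replicate 2, against the distance in nt of the gene's start from the start of the first gene of its cluster, with the miR-17 to miR-92 cluster on the left and the miR-106b to miR-25 cluster on the right. Bars are exact 95% counting intervals and open triangles mark 0 counts, drawn at 3 counts. Levels do not follow the position in the cluster: Mir19a, at 1.03 and 2.18 CPM, lies between Mir18 and Mir20a.

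In the miR-106b to miR-25 cluster, all 3 genes were detected, and Mir93 was the highest of the 9 members. Mir93 (ENSMUSG00000065527.1), at 138165523 to 138165610 of chromosome 5 (minus strand), had 3068 counts in replicate 1 and 2936 in replicate 2. These are 1573 CPM and 1281 CPM, a mean of 1427 ± 207 CPM (SD, n = 2), which ranked 50 among all genes. Mir106b (ENSMUSG00000065514.1, 138165737 to 138165818), the first gene in the transcribed direction, had 1258 and 1337 counts. It reached 645 CPM in replicate 1 and 583 CPM in replicate 2, averaging 614 ± 43.6 CPM (SD, n = 2). Mir25 (ENSMUSG00000065394.1, 138165321 to 138165404) had 426 and 448 counts, or 218 CPM in replicate 1 and 195 CPM in replicate 2, averaging 207 ± 16.2 CPM (SD, n = 2). By counted reads, the middle gene of this cluster was therefore its highest, whereas in the other cluster the first gene was. Any reads missing from Mir92-1 or Mir19b-1 could change the order in that other cluster.

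The 3 genes lie within 498 nt of Mcm7 (chromosome 5, 138164583 to 138172422, minus strand), in intron 13 of one of its protein-coding transcripts. Mir93 and Mir25 also fall in an exon of a retained-intron transcript of Mcm7, and Mir106b falls in no exon. Messenger RNA of Mcm7 was not measured here.

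Neighbours in the order of levels were mostly further apart than their spread. From the top the order was Mir93, Mir17, Mir20a, Mir106b, Mir92-1, Mir25, Mir18, Mir19a and Mir19b-1. The means of Mir93 and Mir17 differed by less than the sum of their SDs (1.21-fold), although both values of Mir93 were above both of Mir17. Mir19a and Mir19b-1 could not be ordered, because their counts were near the floor. The other 6 neighbouring pairs differed beyond their SDs, by 1.37-fold (Mir20a over Mir106b) to 2.50-fold (Mir25 over Mir18) and by a wide but imprecise ratio for Mir18 over Mir19a. For scale, the detected genes nearest in level to Mir17 over the 2 libraries were Mir155, at 1082 CPM in replicate 1 and 1169 CPM in replicate 2, Mir99b and Mir16-1. Those nearest to Mir93 were Mir16-1, at 1570 CPM in replicate 1 and 1106 CPM in replicate 2, Mir214 and Mir361. With 2 libraries such nearness describes a level and nothing more, and reads with more than 1 alignment are in no gene's level.

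Summed over their genes, the 2 clusters were within 1.2-fold of each other. The miR-17 to miR-92 genes summed to 5015 counts in replicate 1 and 5477 in replicate 2, against 4752 and 4721 for the miR-106b to miR-25 genes. As levels these were 2572 and 2390 CPM for miR-17 to miR-92, a mean of 2481 ± 128 CPM, against 2437 and 2060 CPM for miR-106b to miR-25, a mean of 2248 ± 266 CPM (SD, n = 2 each). As shares of all counts, miR-17 to miR-92 took 0.257% (0.2501 to 0.264) in replicate 1 and 0.239% (0.233 to 0.245) in replicate 2, against 0.244% (0.237 to 0.251) and 0.206% (0.2002 to 0.212) for miR-106b to miR-25. The clusters' values overlap across the libraries, because miR-106b to miR-25 in replicate 1 was above miR-17 to miR-92 in replicate 2.

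Within each library miR-17 to miR-92 was the higher. Its ratio to miR-106b to miR-25 was 1.06 in replicate 1 and 1.16 in replicate 2, or 0.08 (0.02 to 0.14) and 0.21 (0.16 to 0.27) on the log2 scale, a mean of 0.15 ± 0.0966 (SD, n = 2). Both intervals lie above 0, but they cover counting error only, and 2 libraries cannot pass an exact test across libraries. The direction depends on what is summed. Without Mir19b-1 and Mir92-1, the genes with X-linked copies, the mean log2 ratio was -0.09. Leaving out genes of miR-17 to miR-92 alone can only lower the ratio, whereas any reads missing from them would raise it. Per gene rather than in sum, the mean log2 ratio was -0.85, since miR-17 to miR-92 has 6 genes and miR-106b to miR-25 has 3.

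The ratio of the clusters differed between the libraries by more than counting error, with an odds ratio of replicate 1 over replicate 2 of 0.910 (0.860 to 0.962; p = 0.000864, two-sided Fisher's exact test). The test compares the reads of 2 libraries and does not measure the spread between animals. Without Mir93 the odds ratio was 0.971 (p = 0.456, same exact test), and without Mir17 it was 0.893 (p = 0.000847, same exact test). Both checks were chosen after the values were seen, and leaving out Mir93, the member with the largest ratio upward, had to bring the odds ratio nearer to 1.

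Within the clusters, each gene's share of its cluster's counts was close in the 2 libraries, and a few genes made up most of each. In miR-17 to miR-92, Mir17 held 47.9% of the cluster's counts in replicate 1 and 46.9% in replicate 2, averaging 47.4% ± 0.703 (SD, n = 2). Mir20a held 33.3% and 34.5%, Mir92-1 15.8% and 14.7%, and Mir18 2.95% and 3.76%. Mir19a held 0.0399% and 0.0913%, and Mir19b-1 held 0 and 0.0548%. Any reads missing from Mir92-1 or Mir19b-1 would raise their shares and lower those of the other genes of this cluster. In miR-106b to miR-25, Mir93 held 64.6% in replicate 1 and 62.2% in replicate 2, Mir106b 26.5% and 28.3%, and Mir25 8.96% and 9.49%.

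Each of the 9 genes was set against the rest of its own cluster by library with a two-sided Fisher's exact test, and p-values are given unadjusted. Of these 9 tests, 3 had p below 0.05, and none stayed below it once adjusted for the 9 tests. Mir93 had a larger share in replicate 1 (odds ratio 1.11, 1.02 to 1.21; p = 0.0169, exact). Mir18 (odds ratio 0.778, 0.623 to 0.969; p = 0.0230, exact) and Mir106b (odds ratio 0.911; p = 0.0450, exact) had smaller ones. Shares of a cluster sum to a whole, so the smaller share of Mir106b is not separate from the larger one of Mir93, and its level was higher in replicate 1 (645 CPM) than in replicate 2 (583 CPM).

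**Figure D2:**
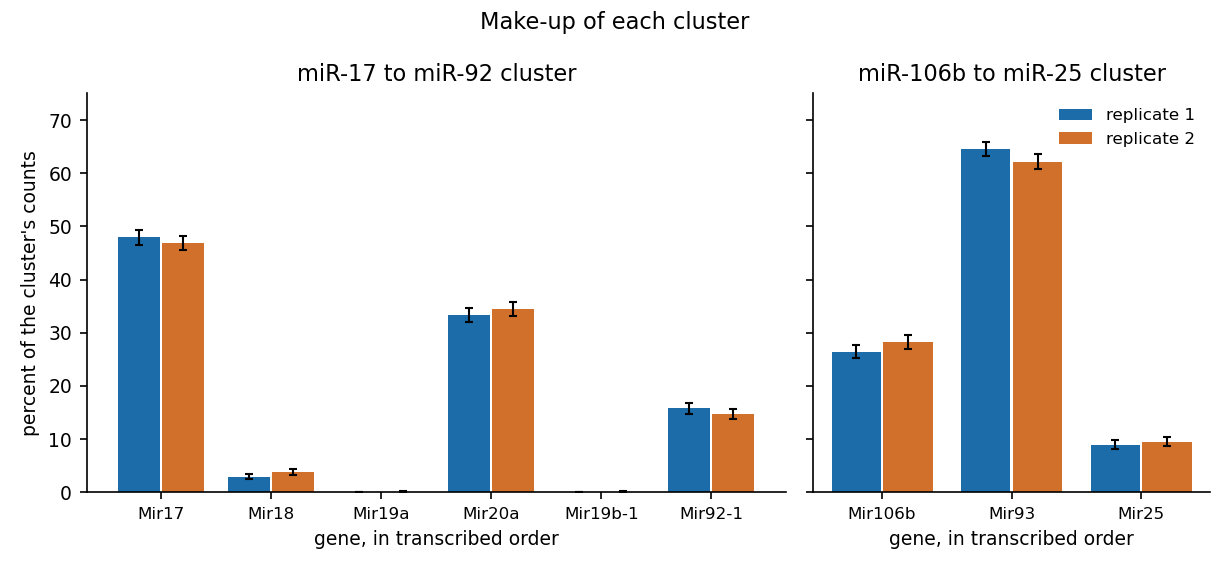
Share of the cluster's counts (percent, vertical axis) held by each gene in replicate 1 and replicate 2, with the miR-17 to miR-92 cluster on the left and the miR-106b to miR-25 cluster on the right. Bars start at 0, and the thin lines are exact 95% intervals. Mir17 and Mir20a lead the first cluster at 47.9% and 33.3% of it in replicate 1, and Mir93 leads the second at 64.6%.

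By seed, the miR-17 family held most of the members' counts. Its 4 members, 2 from each cluster, had 8400 counts in replicate 1 and 8733 in replicate 2, which is 86.0% and 85.6% of all member counts, a mean of 85.8% ± 0.261 (SD, n = 2). Their summed level was 4059 ± 351 CPM (SD, n = 2). The miR-92 family (Mir92-1 and Mir25) held 12.5% in replicate 1 and 12.3% in replicate 2, averaging 12.4% ± 0.137 (SD, n = 2), and 585 ± 55.3 CPM. This share leans on Mir92-1, whose count is uncertain, and was 4.76% without Mir92-1 and Mir19b-1. Leaving these genes out can only lower the miR-92 share and raise that of the miR-17 family. Any reads missing from Mir92-1 would do the reverse, so 4.76% is not a lower limit set by missing reads. The miR-18 family held 1.52% and 2.02%, and the miR-19 family held 0.0205% and 0.0784%.

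The clusters contributed nearly equal counts to the miR-17 family and unequal ones to the miR-92 family. For the miR-17 seed, Mir17 and Mir20a together had 4074 counts in replicate 1 and 4460 in replicate 2, against 4326 and 4273 for Mir106b and Mir93. The ratio was 0.942 (0.902 to 0.983) in replicate 1 and 1.04 (1.00 to 1.09) in replicate 2, so the libraries differed in which cluster was ahead, and the mean log2 ratio was -0.01 ± 0.105 (SD, n = 2). For the miR-92 seed, Mir92-1 had 1.86 times the counts of Mir25 in replicate 1 (1.65 to 2.09) and 1.79 times in replicate 2 (1.59 to 2.02), a mean log2 ratio of 0.87 ± 0.0360 (SD, n = 2). Reads shared by Mir92-1 and Mir92-2 may be missing from these ratios.

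Other genes carry the same seeds elsewhere in the genome, and they added little to the miR-17 seed and more to the miR-92 seed. The miR-17 seed occurs in 7 annotated genes, and the 4 members held 99.3% of their summed counts in replicate 1 and 99.8% in replicate 2. The miR-92 seed also occurs in 7, and Mir92-1 and Mir25 held 86.1% and 90.2% of their counts, with reads shared by Mir92-1 and Mir92-2 perhaps missing. Outside the clusters, Mir32 had 78 counts in replicate 1 and 77 in replicate 2, Mir92b had 63 and 18, and Mir367 had 0 in both. For the miR-19 seed, Mir19a and Mir19b-1 had 2 counts in replicate 1 and 8 in replicate 2, against 0 and 1 for Mir19b-2.

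**Figure D3:**
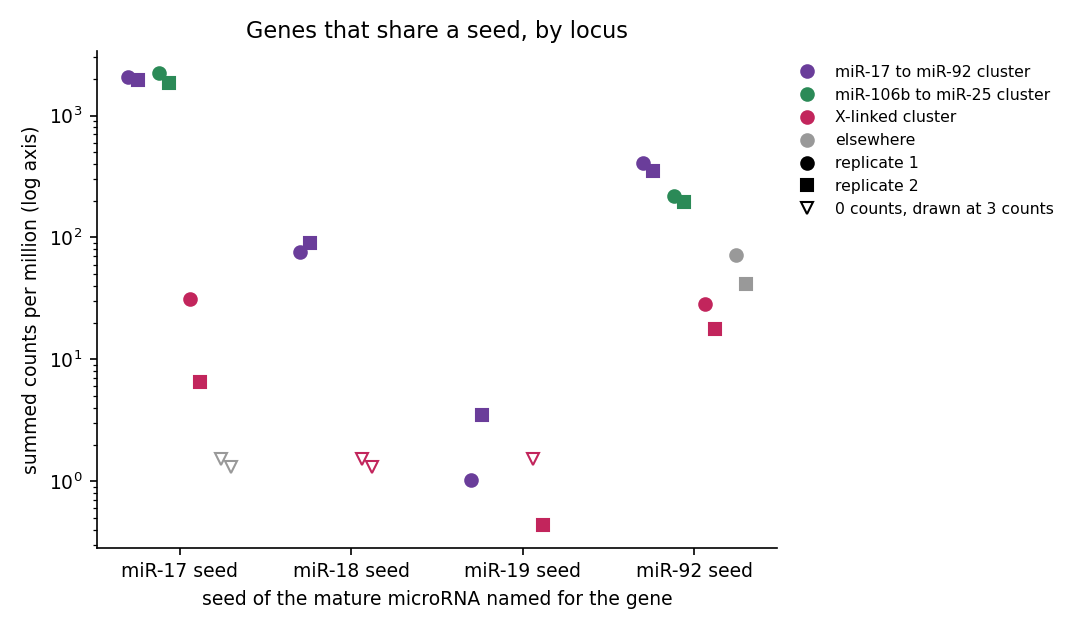
Summed level of the genes that share a seed (CPM, log axis) for the miR-17, miR-18, miR-19 and miR-92 seeds, split by locus. Circles are replicate 1, squares are replicate 2, and open triangles mark 0 counts, drawn at 3 counts. The 2 clusters lie together for the miR-17 seed, while for the miR-92 seed the miR-17 to miR-92 cluster (Mir92-1) is 1.86 and 1.79 times the miR-106b to miR-25 cluster (Mir25).

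Replicate 1 had slightly more than replicate 2 of 6 of the 7 detected members, and all 7 differed by less than 2-fold. Genes detected in both libraries were tested with a two-sided conditional exact binomial test of their counts given TMM-scaled library sizes, adjusted over the 278 genes by the Benjamini-Hochberg method and called at an adjusted p under 0.05 and at least 2-fold. This test compares these libraries, not conditions. None of the 7 detected members was called, while 33 of the 278 genes were (11.9%). With no minimum fold, 3 of 7 members had an adjusted p under 0.05, all higher in replicate 1, against 154 of all genes in either direction (55.4%) and 85 higher in replicate 1 (30.6%). That count of members was 1 with DESeq2 size factors or unstranded counts (Mir93) and 4 with unscaled library totals. With a coefficient of variation of 0.352, edgeR's exact test called 7 genes (2.52%) and no member, but that spread was estimated from the same 2 libraries that are compared, so the test cannot judge differences of ordinary size.

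Mir93 had the largest log2 ratio upward, 0.26 (SE 0.0372, counting error only), which is 1.20-fold, with an adjusted p of 8.17e-12 by the conditional exact test. Mir92-1 had 0.18 (SE 0.0722, adjusted p 0.0285) and Mir17 0.10 (SE 0.0409, adjusted p 0.0259) by the same exact test. With DESeq2 size factors the adjusted p of the same exact test was 0.0714 for Mir92-1 and 0.117 for Mir17, and with unstranded counts it was 0.0501 and 0.0695, so both pass under some scalings alone. The other 4 did not pass: Mir25 had a log2 ratio of 0.13, Mir106b 0.11, Mir20a 0.02 and Mir18 -0.28. With DESeq2 size factors the log2 ratio of Mir20a was -0.0079, so its direction is not set. The members' median log2 ratio was 0.11, with 6 of 7 above 0, against 0.03 over all 278 genes, of which 142 were above 0. Their median absolute log2 ratio was 0.126, from 0.0206 to 0.277, and that of all genes was 0.363, with quartiles of 0.160 and 0.660. The 2 sets are not matched on level, and genes with few counts vary more by counting error alone.

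**Figure D4:**
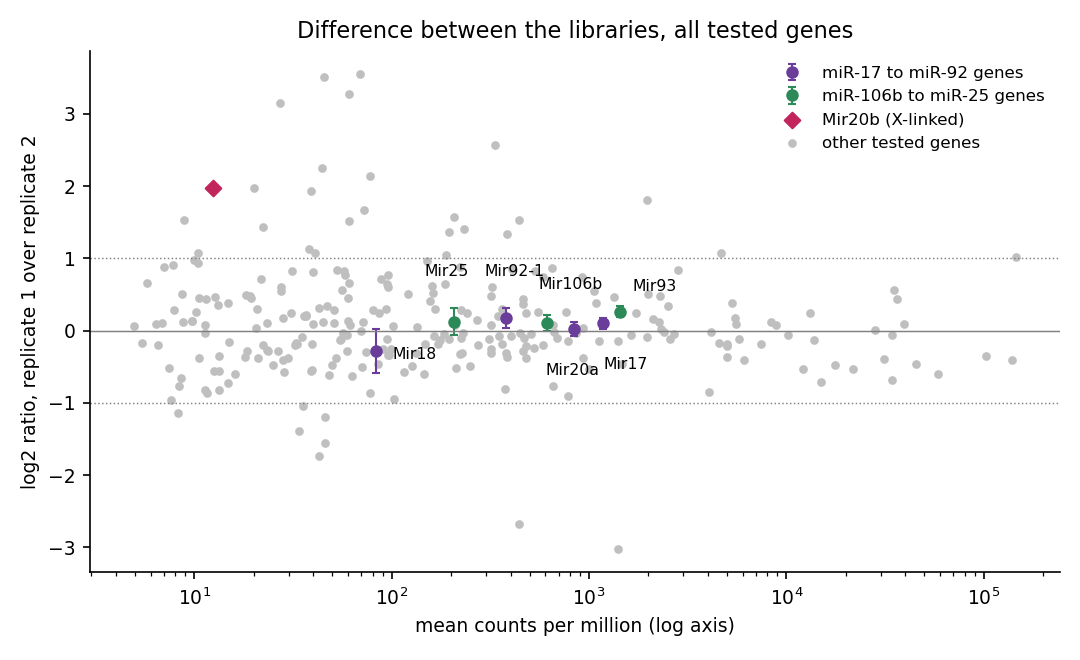
Log2 ratio of replicate 1 over replicate 2 (vertical axis) against mean CPM (log axis) for the 278 tested genes, with the members in color, 95% counting intervals as bars, and dotted lines at 2-fold. The 7 members lie between -0.28 and 0.26, within the dotted lines, and Mir20b of the X-linked cluster lies above them at 1.98.

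Markers of the cell types in the muscle also differed in level between the libraries. Summed marker levels in replicate 1 and replicate 2 were 27946 and 46569 CPM for striated muscle, 120880 and 156853 CPM for endothelium (Mir126a), 202581 and 97334 CPM for smooth muscle (Mir143 and Mir145a), and 3151 and 2461 CPM for leukocytes. Red cell markers stood at 787 and 460 CPM, and the glia and nerve list at 3071 and 855 CPM, all of it Mir338. Mir9-1, Mir9-2 and Mir9-3 had 0 counts. Their 0 does not show absence, because any of their reads with more than 1 alignment would not be counted. Of epithelial markers 4 of 8 were detected, at 545 and 181 CPM. The members' summed level moved by 1.13-fold, against 0.6001-fold for striated muscle, 1.28-fold for leukocytes and 2.08-fold for smooth muscle. Reads with more than 1 alignment are in none of these sums. The striated muscle list holds pairs of gene copies, so its level may be too low. The levels of the lists are therefore not comparable with each other. The part of these cell types in the members' levels was not tested.

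The X-linked cluster was scarce and differed more between the libraries. Its 6 genes had 117 counts in replicate 1 and 57 in replicate 2, with a level of 42.4 ± 24.8 CPM (SD, n = 2), so the 2 clusters together were 83.5 times as high in replicate 1 and 179 times in replicate 2. Against the 9 members, the X-linked sum differed between libraries with an odds ratio of replicate 1 over replicate 2 of 2.14 (1.55 to 3.00; p = 1.32e-06, two-sided Fisher's exact test). The odds ratio was 3.63 without Mir92-2, whose copy is Mir92-1, 1.87 without Mir106a and 1.77 without Mir20b. These comparisons were chosen after the values were seen and cover counting error only.

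The genes of the miR-17 to miR-92 cluster and their X-linked counterparts are near in sequence and far apart in level. miR-106a-5p (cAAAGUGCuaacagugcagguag) differs from miR-17-5p by U10A alone, and miR-20b-5p (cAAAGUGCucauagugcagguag) differs from miR-20a-5p by U1C and U10C. Mir17 had 109 times the counts of Mir106a in replicate 1 (72.0 to 175) and 643 times in replicate 2 (251 to 2361), where Mir106a had only 4 counts. Mir20a had 42.8 times those of Mir20b in replicate 1 (31.2 to 60.4) and 172 times in replicate 2 (95.8 to 345). Mir92-1 had 17.98 times those of Mir92-2 in replicate 1 (13.3 to 24.9) and 22.3 times in replicate 2 (15.97 to 32.1), with reads shared by both perhaps missing. Mir18b had 0 counts in both libraries. Taking 3 counts as its floor, Mir18 was at least 49.3-fold higher in replicate 1 and at least 68.7-fold higher in replicate 2. The exact upper limits for 0 counts lie somewhat above that floor, so these bounds are approximate.

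Mir20b was the X-linked gene that was called between the libraries. It had 39 counts in replicate 1 and 11 in replicate 2, or 20.0 and 4.80 CPM, a log2 ratio of 1.98 (SE 0.483) with an adjusted p of 1.91e-05 by the conditional exact test. Mir92-2, with 44 and 36 counts, was not called (log2 ratio 0.48, adjusted p 0.209 by the conditional exact test). Mir106a had 22 and 4 counts and Mir363 had 12 and 5, and neither was tested, because a library was under 10 counts.

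**Figure D5:**
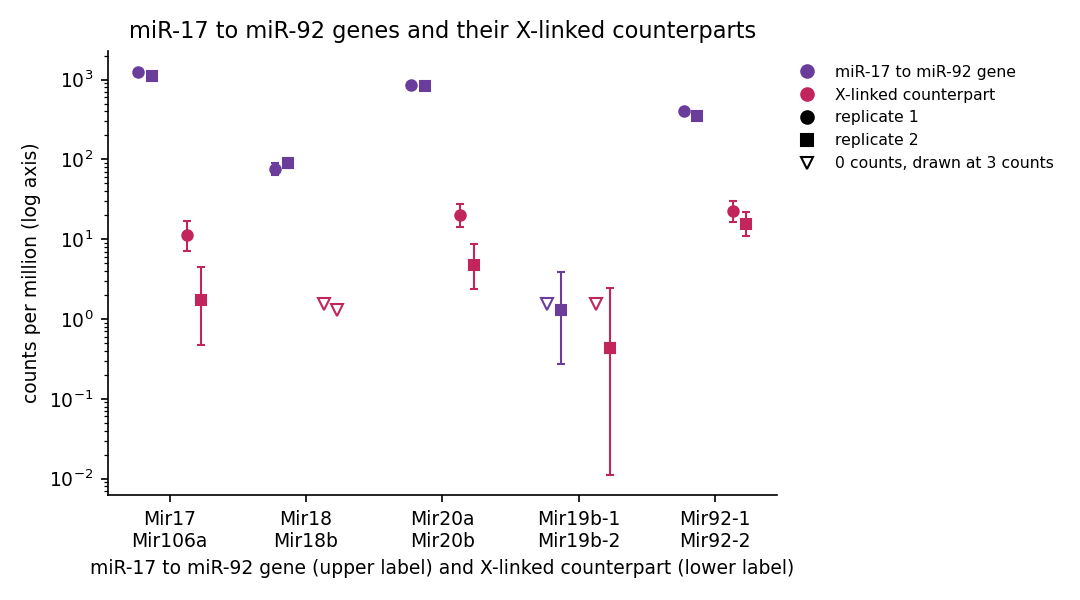
Level (CPM, log axis) of 5 miR-17 to miR-92 genes, each left of its X-linked counterpart, in replicate 1 (circles) and replicate 2 (squares), with exact 95% intervals and 0 counts drawn as open triangles at 3 counts. Mir17, Mir18, Mir20a and Mir92-1 lie above their counterparts in both libraries, and Mir19b-1 and Mir19b-2 lie near the floor.

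Other microRNAs tied to the cell cycle gave no common direction. Mir15b and Mir16-2, which lie together in an intron of Smc4 and lower cyclins and Bcl2, had 590 and 733 counts in replicate 1 and 735 and 604 in replicate 2. Neither was called, with log2 ratios of -0.12 and 0.48. As for all genes, reads with more than 1 alignment are not in these counts. In a further list of 11 such genes, of the miR-34, miR-15, miR-16, miR-195 and let-7 families, 10 were tested, 4 had a ratio above 0 and the median log2 ratio was -0.05. With no minimum fold, most of the 10 had an adjusted p under 0.05, as did 55.4% of all tested genes. A single one of the 10 was called, against 11.9% of all tested genes, and it was Mir34c, a target gene of p53, with 176 counts in replicate 1 and 70 in replicate 2 (log2 ratio 1.52, adjusted p 1.21e-14 by the conditional exact test).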

How the data were processed

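The deposited tables give raw read counts for each microRNA gene on both strands together, on its own strand and on the opposite strand. Per the deposited notes, GENCODE M21 microRNA genes on mm10 were counted. Aligner and counter: not given in the sources used here. Own-strand counts were used, and rows that name no gene (multimapping reads among them, 70.1% and 72.3% of reads listed) were left out of totals. CPM is over own-strand counts.

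Library sizes were TMM-scaled with edgeR 4.0.16. Log2 ratios add 0.5 counts. With 1 group there is no contrast for the quasi-likelihood test, and edgeR's exact test was an alternative. Shares have Clopper-Pearson intervals. Over genes, the libraries differed far beyond sampling noise (chi-square per degree of freedom 568), so they are not copies of 1 library. R 4.3.3, DESeq2 1.42.0, Python 3.11.15 and scipy 1.17.1 were used. Tests were checked on simulated counts with sampling noise only, so the check does not cover the larger spread between these libraries. Named genes were the 9 members, the X-linked cluster, Mir15b, Mir16-2 and the 3 genes nearest in level to Mir17 and to Mir93; Mir32, Mir92b, Mir367 and Mir34c were named after their values were seen. The members and lists were chosen with earlier results of these data known. Replicates are the labels' separate samples, and the p-values given cover only counting error between these samples.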

Additional observations from a re-analysis of the deposited data

Results flagged for a closer look

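Reads that aligned to several places are outside the gene counts, and there were 6593896 of them in replicate 1 and 10399139 in replicate 2, more than the reads counted on microRNA genes. They stand out as a signal in rows that no comparison uses. How many of them came from Mir19b-1, Mir92-1 or another member was not tested, because the files give no position for them.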

How the results depend on the processing

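A value was kept if its direction and side of the threshold held (for a member's log2 ratio, an adjusted p of 0.05). Values without a test were kept if they moved by less than the spread. Counts of called genes, and percentages of calls higher in replicate 1, were kept under a looser limit. Against 33, kept counts included 48 with at least 1 count over both libraries. Another was 22 with edgeR's exact test at an assumed coefficient of variation of 0.2. Over 28 results and 94 alternative values, 67 were kept, 17 moved, 6 lost significance, 1 gained it and 3 turned direction. The gain was Mir106b with unscaled totals (adjusted p 0.0215, conditional exact test). Of the 6, 4 were Mir17 and Mir92-1 with DESeq2 size factors and with unstranded counts. Some of the 67 could not have come out otherwise. A cluster value from 1 library alone always lies within the SD. Unstranded counts leave ratios among members unchanged, because no member had reads on the opposite strand. The minimum of 50 counts left the log2 ratio of each tested member unchanged. The count of genes called between the libraries was 33, against 18 with at least 50 counts in each library, 154 with no minimum fold (where 3 members passed) and 7 with edgeR's exact test at the estimated spread. Mir20a turned to -0.0079 (log2) with DESeq2 size factors. The mean level of miR-17 to miR-92 was 457 CPM over all reads listed, 7543 without the 10 most abundant genes in the denominator, 3391 with unstranded counts and 2102 without Mir19b-1 and Mir92-1, and that of miR-106b to miR-25 was 417, 6846 and 3068 under the first 3 of these. The members' counts are the same when unstranded, so the higher level there comes from a smaller library total alone. The log2 ratio of the clusters was -0.093 without Mir19b-1 and Mir92-1, a step that can only lower it. Per gene the ratio was -0.85, and without the most abundant member of each cluster it was 0.67. The odds ratio between libraries was 0.952 without those top members and 0.971 without Mir93, an alternative added after seeing the data. The miR-17 seed held 93.3% without Mir19b-1 and Mir92-1 and 85.5% with the X-linked genes added, and the miR-92 seed 4.76% and 12.7%. Leaving out Mir19b-1 and Mir92-1 had to raise the share of the miR-17 seed and lower that of the miR-92 seed. Scaling alternatives shifted the median of all genes by at most 0.0345 (log2). No paired analysis was possible because there is 1 group. Depth limits Mir19a and Mir19b-1, whose counts lie at or near the floor of 3, and multimapping reads limit Mir92-1 and Mir19b-1.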
